A study of Mus musculus with 6 samples.

Results

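The ADAMTS genes encode secreted zinc metalloproteases that carry thrombospondin type 1 repeats. Described here are the genes of 10 of them, ADAMTS1, ADAMTS2, ADAMTS4, ADAMTS5, ADAMTS6, ADAMTS7, ADAMTS9, ADAMTS10, ADAMTS12 and ADAMTS15 (below as the mouse symbols Adamts1 and so on), in RNA sequencing data of JAG1-overexpressing astrocytes. They were taken by gene symbol from the 23282 rows of each table, and all 10 had a row. The members were chosen by name with the read counts of the JAG1 and control libraries known. No threshold on those counts is recorded, and the list follows no limit on the number of reads, since it holds Adamts15, with at most 2 reads in a library, and leaves out Adamts14, with 70 to 127. The differences between the groups are therefore a description of the members and no test of them.

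ADAMTS proteases are made as inactive precursors, are activated by proprotein convertases such as furin, and act on the extracellular matrix. Adamts1, 4, 5, 9 and 15 belong to the proteoglycanases, which cut lecticans such as versican, brevican and aggrecan. Adamts2, 3 and 14 remove the amino-terminal propeptide of fibrillar procollagens. Adamts7 and 12 cut cartilage oligomeric matrix protein, and Adamts6 and 10 are tied to fibrillin microfibrils. In the brain the lecticans are a main part of the matrix between cells, and these proteases are best known there for cutting it.

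All 6 libraries came from a mouse astrocyte line labelled Ink4a -/- and given in the paper as Ink4a/Arf-/-, that is, without the tumor suppressors Ink4a and Arf, grown in serum. In the control group (3 libraries) the cells were transfected with pcDNA3.1-puro, an empty plasmid, and in the JAG1 group (3 libraries) with pcDNA3.1-JAG1-puro, which expresses the NOTCH ligand JAG1. The plasmids are named in the study's data statement. The controls also carry the label WT, which is read here as lacking the JAG1 plasmid. Whether the 3 libraries of each group were grown and transfected separately is not given, so p-values measure the spread between these libraries, which may be technical. The tables held between 14341634 and 20489062 reads per library, from a kit that reads 3' ends of polyadenylated RNA. Such reads depend little on the length of a transcript, so levels are given in CPM (reads per 1000000 reads, after TMM normalization) without a correction for length. Setting them side by side between genes takes it that the 3' end of each gene is annotated and its reads can be placed. This was not checked, so orders, sums and shares over genes are those of counted reads. A count of 3, the limit of detection used here, equals 0.148 to 0.206 CPM depending on the library and covers counting error only. Jag1 itself, the overexpressed gene, had 182, 201 and 214 reads in the control libraries and 304, 197 and 227 in the JAG1 libraries, or 10.3 ± 1.18 against 14.2 ± 0.862 CPM (SD, n = 3). It rose, with a log2 change (the log2 of the fold of JAG1 over control) of 0.46 ± 0.11 (SE, edgeR quasi-likelihood test, adjusted p = 0.00446). Counts by symbol cannot tell the plasmid's transcript from that of the cell's own gene. As the kit reads 3' ends, it is also not known whether the plasmid's transcript was counted as Jag1. The rise is therefore no measure of the overexpression. The labelled cell type was checked against its markers. Gfap and Aqp4, which define mature astrocytes, had 0 reads in all 6 libraries, which allows up to 0.206 CPM. Slc1a3, Slc1a2 and Fabp7 were also at or under the limit of detection in every library. Of 10 astrocyte markers, 5 were tested and all 5 were lower in JAG1 libraries, against 27.7% of all genes tested. S100b and Aldoc passed the filter on low counts (0.529 CPM in at least 3 libraries) only through their control libraries, so their fall is not counted as a result. The summed level of the 10 markers went from 310 to 370 CPM in control to 107 to 122 CPM in JAG1 libraries. Most of that sum was Sox9, with 181 ± 4.64 against 18.0 ± 1.25 CPM (SD, n = 3), and Gja1.

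For 3 members, Adamts1 (the most abundant), Adamts9 (without reads in control) and Adamts2 (the strongest fall among those tested), the 250 bases before the annotated start of the gene are shown, as RefSeq gives them on GRCm38.p6, written 5′ to 3′ on the strand of the gene. The table of promoters held 4 of the 10 members. The window of Adamts9 lies within the outer bounds of its gene and so belongs to 1 of its starts. Capitals mark E-boxes (CANNTG, the class of site that basic helix-loop-helix factors such as TWIST1 read) and the TATA box (TATAAA). Adamts1 and Adamts9 were higher in JAG1 libraries and Adamts2 was lower.
Adamts1, minus strand, chr16:85803114-85803363: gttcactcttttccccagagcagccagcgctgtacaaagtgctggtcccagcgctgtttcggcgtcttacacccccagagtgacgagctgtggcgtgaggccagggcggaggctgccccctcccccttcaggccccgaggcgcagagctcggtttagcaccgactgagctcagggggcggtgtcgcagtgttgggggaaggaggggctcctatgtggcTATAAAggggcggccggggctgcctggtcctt
Adamts9, minus strand, chr6:92943535-92943784: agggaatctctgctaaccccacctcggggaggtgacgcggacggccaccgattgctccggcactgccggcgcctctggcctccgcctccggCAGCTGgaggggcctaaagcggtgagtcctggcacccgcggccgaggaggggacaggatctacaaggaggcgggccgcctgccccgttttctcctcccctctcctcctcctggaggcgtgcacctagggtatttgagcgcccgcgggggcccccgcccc
Adamts2, plus strand, chr11:50601835-50602084: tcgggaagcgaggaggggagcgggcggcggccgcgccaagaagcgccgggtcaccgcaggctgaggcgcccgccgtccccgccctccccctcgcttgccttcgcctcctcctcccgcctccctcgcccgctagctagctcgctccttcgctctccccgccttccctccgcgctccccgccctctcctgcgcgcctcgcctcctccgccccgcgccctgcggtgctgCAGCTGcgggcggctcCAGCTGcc

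Adamts1 had 1 TATA box, 32 bases before its start, and no E-box. Adamts9 had 1 E-box, 159 bases before its start, and Adamts2 had 2, at 24 and 8 bases. Both strands were searched, and the motifs do not overlap in these windows. An E-box was found in 66.2% and a TATA box in 12.4% of 32851 promoter windows of the same length. The core letters TGGGAA of the NOTCH effector RBPJ, found in 21.6% of all windows, and CAGAC, part of the site of SMAD factors and found in 42.2%, were in none of the 3 windows. Of the windows searched but not shown, that of Adamts12 had neither. That of Adamts14, which is no member, had the RBPJ letters 220 and the SMAD letters 181 bases before its start. A match is a description of the letters only.

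Of the 10 members, 7 had enough reads to be tested. Adamts9 passed the filter on low counts (0.529 CPM in at least 3 libraries) only through its JAG1 libraries and Adamts2 only through its control libraries, so these 2 had to differ. Of the 7, 3 were past an adjusted p of 0.05 and higher in JAG1 libraries (Adamts1, 5 and 9) and 4 were lower (Adamts2, 4, 7 and 10). Over all 11712 genes tested, 27.4% were higher and 27.7% lower, together 55.1%. Of all 10 members, 3 had every JAG1 library above every control library and 5, Adamts12 among them, had every JAG1 library below. Over all genes tested this held for 31.1% and 30.9%, together 62.0%. As the list was made with this contrast known, nothing is read from these shares. Counts per gene in bulk RNA cannot tell fewer cells that make a transcript from less of it per cell.

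**Figure D1:**
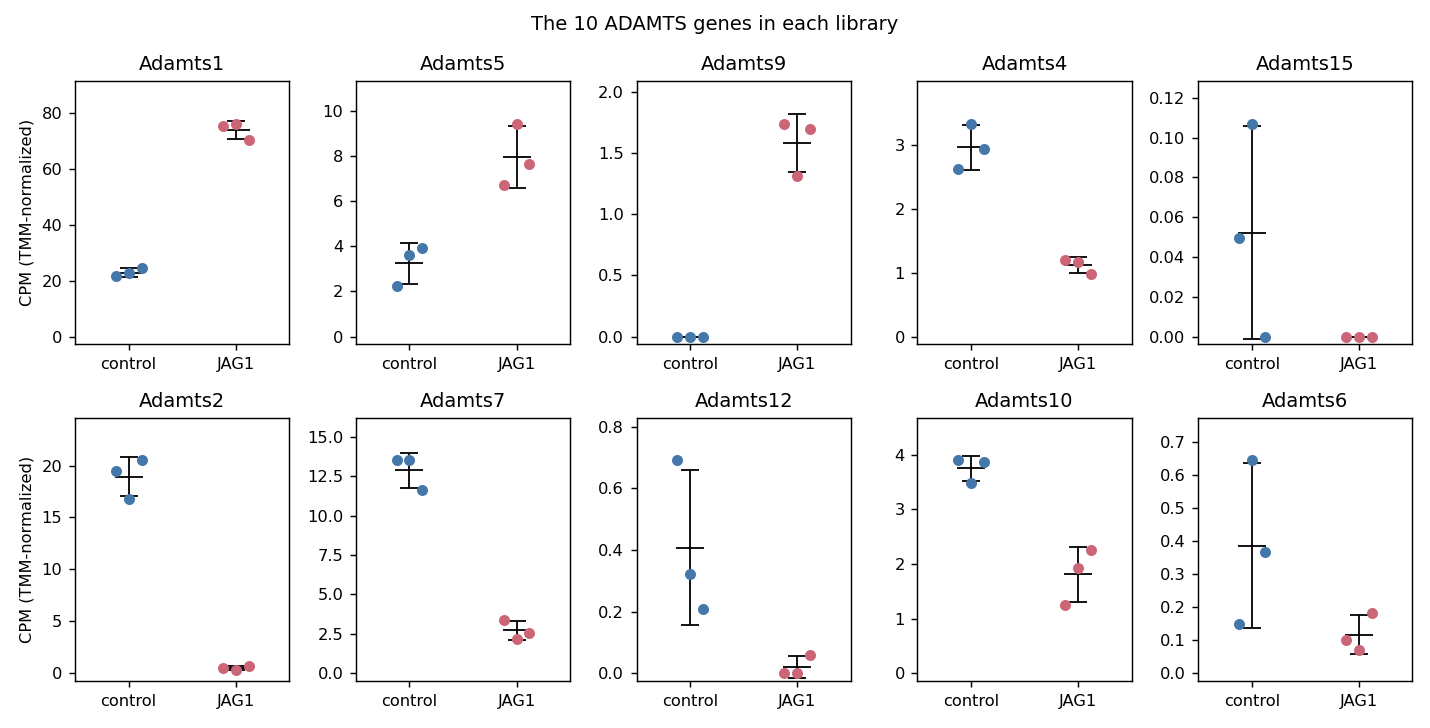
Each panel shows 1 gene, with CPM after TMM normalization on the y axis (linear, its own range) and the 3 control (blue) and 3 JAG1 libraries (red) as points, and the bar is the mean with its SD. Adamts1, 5 and 9 lie higher in all JAG1 libraries, Adamts4, 2, 7, 12 and 10 lower, and the libraries of Adamts15 and Adamts6 overlap.

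Adamts1 was the most abundant member in both groups. It cuts versican and aggrecan and also binds VEGF, and its gene lies on chromosome 16 from 85793827 to 85803113 (GRCm38.p6). It had 435, 422 and 467 reads in the control libraries and 1512, 1106 and 1158 in the JAG1 libraries. Its level was 22.9 ± 1.48 CPM in control and 73.9 ± 3.14 CPM in JAG1 libraries (SD, n = 3), a log2 change of 1.69 ± 0.07 (SE), or 3.24-fold. The lowest JAG1 library, at 70.3 CPM, lay far above the highest control library, at 24.4 CPM.

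Adamts5, the main aggrecanase of mouse cartilage, is the neighbour of Adamts1 on chromosome 16 (85858157 to 85901125), 55.0 kb away. It had 45, 67 and 75 reads in control and 135, 137 and 126 in JAG1 libraries. The level went from 3.25 ± 0.903 to 7.94 ± 1.37 CPM (SD, n = 3), a log2 change of 1.28 ± 0.21 (SE). Every JAG1 library was above every control library, and control replicate 1, at 2.22 CPM, was the lowest of the 6. Relative to its level it varied more within a group than Adamts1 did.

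Adamts9, a protease that cuts versican and aggrecan and ends in a domain shared only with Adamts20, had 0 reads in each control library. In the JAG1 libraries it had 35, 19 and 28 reads, or 1.58 ± 0.241 CPM (SD, n = 3). Against the limit of 3 reads in each control library it was at least 10.2-fold higher. It was thus detected in 3 of 3 JAG1 libraries and in no control library. Adamts9 lies on chromosome 6 (92772699 to 92944450), where exons of A730049H05Rik and Gm15737 overlap it on the other strand, the nearer of them 43779 bases from its 3' end.

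Adamts4, the other classic aggrecanase, moved in the opposite direction. It had 53, 62 and 56 reads in control and 24, 17 and 16 in JAG1 libraries, and went from 2.96 ± 0.357 to 1.11 ± 0.123 CPM (SD, n = 3). The log2 change was −1.40 ± 0.22 (SE), and the groups did not overlap. Adamts4 lies on chromosome 1 (171250129 to 171262267). Adamts15, on chromosome 9, had 1, 2 and 0 reads in control and 0 in each JAG1 library, so it was not above the limit of detection in either group and no fold is given.

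The sum of the 5 proteoglycanases went from 29.1 ± 2.51 to 84.6 ± 3.69 CPM (SD, n = 3). Most of this sum was Adamts1, and without it the sum went from 6.26 ± 1.19 to 10.6 ± 1.15 CPM.

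Adamts2, the main procollagen N-propeptidase of skin, fell the most among the tested members. It had 395, 313 and 392 reads in the control libraries and 10, 4 and 12 in the JAG1 libraries. Its level went from 18.9 ± 1.91 CPM, second among the ADAMTS genes in control, to 0.501 ± 0.227 CPM (SD, n = 3). The log2 change was −5.20 ± 0.21 (SE), or 36.8-fold lower. The JAG1 libraries were still above the limit of 3 reads. Adamts2 lies on chromosome 11 (50602085 to 50807573), and no exon of another gene overlaps its exons in GENCODE M21.

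Adamts14, the paralog of Adamts2 with the same kind of activity and no member of the list, rose. It had 76, 70 and 96 reads in control and 127, 94 and 117 in JAG1 libraries, a log2 change of 0.67 ± 0.16 (SE, edgeR adjusted p = 0.00366). Within a library there were 4.08 to 5.20 times as many reads of Adamts2 as of Adamts14 in control, and 0.0426 to 0.103 times as many in JAG1 libraries. The gene of this pair with more reads was thus Adamts2 in every control and Adamts14 in every JAG1 library. Adamts3, the remaining enzyme of this kind, had 0 reads in all 6. The sum of the 3 genes went from 23.1 ± 2.49 to 7.14 ± 0.608 CPM (SD, n = 3).

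Adamts7 came after Adamts2 in level in control. It had 273, 252 and 221 reads in control and 68, 32 and 42 in JAG1 libraries, or 12.9 ± 1.12 against 2.71 ± 0.610 CPM (SD, n = 3). The log2 change was −2.22 ± 0.16 (SE), or 4.65-fold lower, with no overlap between the groups. On chromosome 9, an exon of Tbc1d2b on the other strand overlaps that of Adamts7, 177 bases from the 3' end of Adamts7 in GENCODE M21. RefSeq ends Adamts7 before this stretch, at 90200102. How strand was used in counting is not given in the sources used here, so reads from this stretch cannot be assigned to either gene. Tbc1d2b itself had a log2 change of −0.46 ± 0.09 (SE).

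Adamts12, the closest relative of Adamts7, had 14, 6 and 4 reads in control and 0, 0 and 1 in JAG1 libraries. It had too few reads for the test. The ratio of control to JAG1 reads, scaled for library size, was 21.1 (exact 95% interval 3.45 to 869, counting error only). With no filter on low counts, its log2 change in edgeR was −3.98 ± 1.12 (SE). Adamts12 lies on chromosome 15 (11064773 to 11349232), where the median log2 change of 441 tested genes was −0.54 and 333 of them were lower. On chromosome 19, which holds no member, the median was 0.6 and 292 of 398 tested genes were higher. The other autosomes had medians from −0.05 to 0.05. Of the 6 tested genes nearest to Adamts12, 5 were lower, with a median over the 6 of −0.34. The part of the chromosome in the value of Adamts12 was not tested.

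Adamts10, a protein that binds fibrillin-1 and is mutated in Weill-Marchesani syndrome, had 79, 65 and 74 reads in control and 25, 28 and 37 in JAG1 libraries. Its level went from 3.75 ± 0.229 to 1.81 ± 0.511 CPM (SD, n = 3), a log2 change of −1.08 ± 0.22 (SE). Its relative Adamts6 had 3, 12 and 7 reads in control and 2, 1 and 3 in JAG1 libraries, too few for the test. The groups of Adamts6 overlapped, and the ratio of control to JAG1 reads was 3.23 (exact 95% interval 1.27 to 9.73, counting error only).

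Over all 19 ADAMTS proteases the summed level was 69.9 ± 2.80 CPM in control and 96.4 ± 2.72 CPM in JAG1 libraries (SD, n = 3), while the sum without Adamts1 was 47.0 ± 1.48 in control and 22.5 ± 1.03 CPM in JAG1 libraries. Adamts1 held 32.7% ± 0.993 of the family's CPM in control and 76.6% ± 1.41 in JAG1 libraries (SD, n = 3). Adamts2 went from 27.1% ± 2.22 to 0.524% ± 0.250, and Adamts7 from 18.5% ± 2.29 to 2.82% ± 0.646. In control, Adamts1, 2 and 7 stood in this order with no overlap between libraries, followed by Adamts14, 10, 5 and 4, of which neighbours in the order overlapped. In JAG1 libraries Adamts1 was followed by Adamts5 and Adamts14, which overlapped each other, then by Adamts7, 10 and 9, of which neighbours overlapped, and by Adamts4 and Adamts2, which did not. The 9 proteases outside the list were Adamts14, described above, and 8 genes with at most 3 reads in any library. Of these 8, Adamts3, 8, 18, 19 and 20 had no read at all, and Adamts13, 16 and 17 had between 0 and 3. Adamts8 is the neighbour of Adamts15 on chromosome 9, and neither was above the limit.

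**Figure D2:**
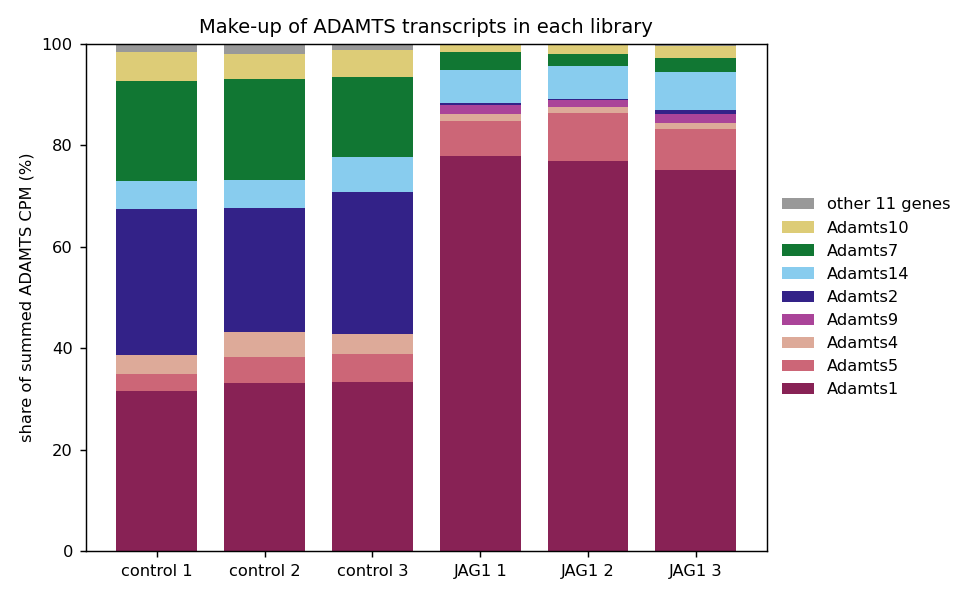
Stacked bars show, for each library on the x axis, the share in percent of the summed CPM of all 19 ADAMTS proteases that each gene took. Adamts1 takes 31.6% to 33.4% in the control and 75.1% to 77.9% in the JAG1 libraries, and the shares of Adamts2 and Adamts7 shrink.

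The genes next to the members on the chromosomes were compared with them, taking 3 tested genes on each side. The members were listed with this contrast known, so the comparison is a description only. Around Adamts1 and Adamts5, the gene with a call on either side was the other of this pair. The 4 genes that are near both, App, Gabpa, N6amt1 and Ltn1, had log2 changes of 0.07, 0.27, 0.19 and 0.18, and none of them was past the threshold (adjusted p 0.0963 to 0.375). Around Adamts2, 4 of 6 genes were lower, between −0.74 (Zfp354c) and −0.14 (Canx), and 1, Zfp2, was higher, at 0.98. Around Adamts7, 2 of 6 were lower, Tbc1d2b at −0.46 and Tmed3 at −0.33. Around Adamts9, Magi1 was lower at −1.25 and the other 5 did not pass the test. Around Adamts10, Zfp81 was lower at −0.86, Zfp414 was higher at 0.24, and the other 4 did not pass it.

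**Figure D3:**
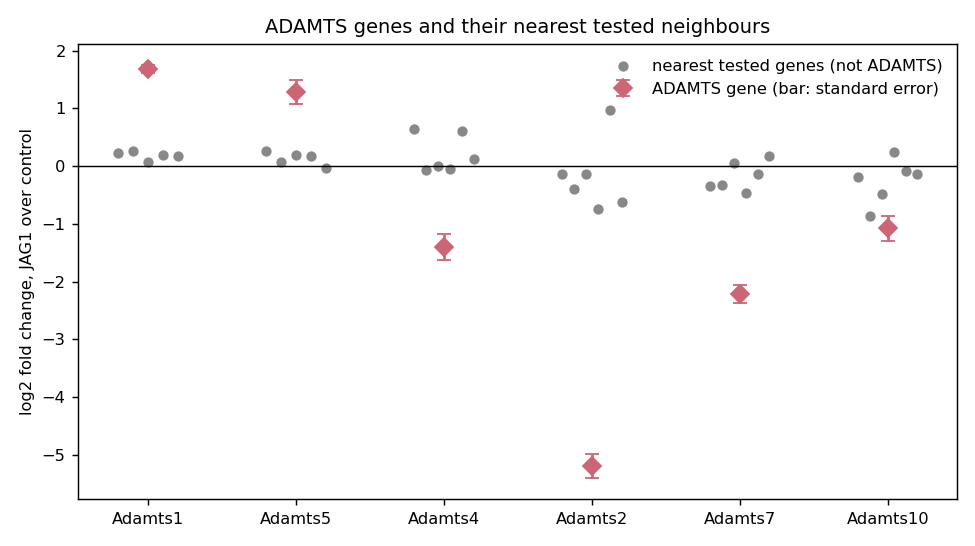
The y axis gives the log2 change of JAG1 over control; red diamonds are 6 tested ADAMTS genes with their standard error, and grey points are the nearest tested genes, ADAMTS genes left out. The diamonds range from −5.20 to 1.69 and the points shown lie between −0.86 and 0.98. Adamts9, with 0 reads in each control library, is left out. Adamts2 passed the filter on low counts only through its control libraries. As the members were listed with this contrast known, nothing is read from where the diamonds lie against the points.

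The ADAMTS-like proteins, which share the repeats but have no protease domain, were looked at next. Of 7 in the list 3 were tested, of which 2 rose and none fell. Adamtsl4 went from 6.28 ± 0.419 to 9.19 ± 0.392 CPM (SD, n = 3), a log2 change of 0.55 ± 0.12 (SE, edgeR adjusted p = 0.00191). Adamtsl3 went from 9.95 ± 1.59 to 14.1 ± 1.21 CPM, a log2 change of 0.50 ± 0.13 (SE, edgeR adjusted p = 0.00631). The median of the 3 was 0.50, against 0.004 over all genes tested. Over all lists other than the members and the markers, 11 of 37 tested genes were higher and 13 were lower. The shares over all genes tested were 27.4% and 27.7%. As the lists were chosen with earlier results known, nothing is read from the counts of calls here or in the lists below.

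Among lecticans, which are substrates of the proteoglycanases, and other genes of the hyaluronan matrix, 4 of 14 genes were tested, with 1 higher, 2 lower and a median of −0.21. Versican (Vcan) was the only lectican above the limit of detection, with 165 ± 5.18 CPM in control and 83.9 ± 6.52 CPM in JAG1 libraries (SD, n = 3), a log2 change of −0.98 ± 0.06 (SE, edgeR adjusted p = 2.74e-07). Vcan RNA lay lower in 3 of 3 JAG1 libraries while the summed RNA of the proteoglycanases was higher in 3 of 3. Most of that sum was Adamts1, and Adamts4 was lower in 3 of 3. A link between these RNA levels was not tested, and cutting of the protein was not measured. Acan had 0 reads, and Bcan and Ncan, which are brain lecticans, at most 2 in any library; these 3 are named after their values were seen. Hapln4, a link protein of perineuronal nets, had a log2 change of −1.51 ± 0.29 (SE). Hapln4 passed the filter on low counts only through its control libraries, so no p is given. Cd44, the hyaluronan receptor, rose by 0.71 ± 0.06 on the log2 scale (SE, edgeR adjusted p = 1.83e-06).

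Of the 9 fibrillar procollagens and their processing genes, 8 were tested, with 1 higher, 3 lower and a median of −0.33. Col1a2 rose from 3.35 ± 0.528 to 50.7 ± 6.20 CPM (SD, n = 3), a log2 change of 3.92 ± 0.13 (SE, edgeR adjusted p = 1.42e-09). Its partner chain Col1a1 went the other way, from 236 ± 2.56 to 164 ± 14.3 CPM (edgeR adjusted p = 3.50e-05). Within a library there were 62.1 to 85.9 reads of Col1a1 for each of Col1a2 in control and 3.11 to 3.37 in JAG1 libraries. Col3a1 and Col5a2 fell, with log2 changes of −1.70 ± 0.08 (SE, edgeR adjusted p = 2.23e-08) and −1.49 ± 0.06 (SE, edgeR adjusted p = 3.66e-09). Bmp1 and Pcolce, which act at the other end of procollagen, did not pass the test, with log2 changes of −0.19 and −0.03 (named after their values were seen).

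The list of other substrates and binding partners had 12 of 16 genes tested, with 3 higher, 6 lower and a median of −0.24. Of these, Nid1 passed the filter on low counts only through its JAG1 libraries, and Fbln1 and Dcn only through control, so they had to differ and no p is given for them. Nid1, a basement membrane protein cut by Adamts1, had 4, 0 and 2 reads in control and 638, 483 and 439 in JAG1 libraries, a ratio of JAG1 to control reads, scaled for library size, of 295 (exact 95% interval 135 to 806, counting error only). Its fitted log2 change was 8.11 ± 0.27 (SE), and 8.99 without control replicate 1. The semaphorin Sema3c, another substrate of Adamts1, rose by 1.73 ± 0.13 (SE, edgeR adjusted p = 7.49e-07), and progranulin (Grn), which Adamts7 cuts, by 0.65 ± 0.06 (SE, edgeR adjusted p = 3.40e-06). Fibulin-1 (Fbln1), a cofactor of Adamts1, had 47, 49 and 25 reads in control and 1, 0 and 0 in JAG1 libraries, a ratio of control to JAG1 reads of 107 (exact 95% interval 18.8 to 4240, counting error only). The small proteoglycans Dcn and Bgn had log2 changes of −3.09 ± 0.44 (SE) and −1.44 ± 0.16 (SE), with an edgeR adjusted p of 1.78e-05 for Bgn. Without JAG1 replicate 2 the log2 change of Dcn was −3.71. Comp, the substrate of Adamts7 and 12, had at most 2 reads in a library.

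The last list held inhibitors, activators, and genes of clearance and glycosylation, of which 9 of 15 were tested, with 3 higher, 2 lower and a median of 0.05. B3glct, the enzyme that adds glucose to the fucose on thrombospondin repeats, a sugar that ADAMTS proteins carry, had 0, 1 and 0 reads in control and 153, 125 and 102 in JAG1 libraries. The ratio was 432 (exact 95% interval 77.0 to 17100, counting error only). B3glct passed the filter on low counts only through its JAG1 libraries, so it had to differ and no p is given. Pofut2, which adds that fucose, had 15.3 ± 2.03 CPM in control and 15.8 ± 1.5 CPM in JAG1 libraries (SD, n = 3; edgeR adjusted p = 0.756; named after its values were seen). Timp1 rose by 0.59 ± 0.06 (SE, edgeR adjusted p = 1.42e-05) and Timp2 fell by 0.48 ± 0.04 on the log2 scale (SE, edgeR adjusted p = 4.60e-06). Timp3, the tissue inhibitor most active on ADAMTS proteases, had 198 ± 10.3 CPM in control and 211 ± 3.85 CPM in JAG1 libraries (SD, n = 3), a log2 change of 0.09 (standard error 0.05, edgeR adjusted p = 0.187; also named after its values were seen). Furin, an activator, had a log2 change of 0.21 ± 0.08 (SE, edgeR adjusted p = 0.0378), with overlapping groups. Without any 1 of control replicates 2 and 3 and JAG1 replicates 1, 2 and 3, its adjusted p in edgeR was between 0.0505 and 0.134, and without control replicate 3 its log2 change was 0.12. Lrp1, the receptor that clears several of these proteases, had a log2 change of −0.26 ± 0.09 (SE, edgeR adjusted p = 0.0377), and adjusted p-values of 0.0855, 0.0975 and 0.140 without control replicate 2, JAG1 replicate 2 and JAG1 replicate 3, the last with a log2 change of −0.15.

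**Figure D4:**
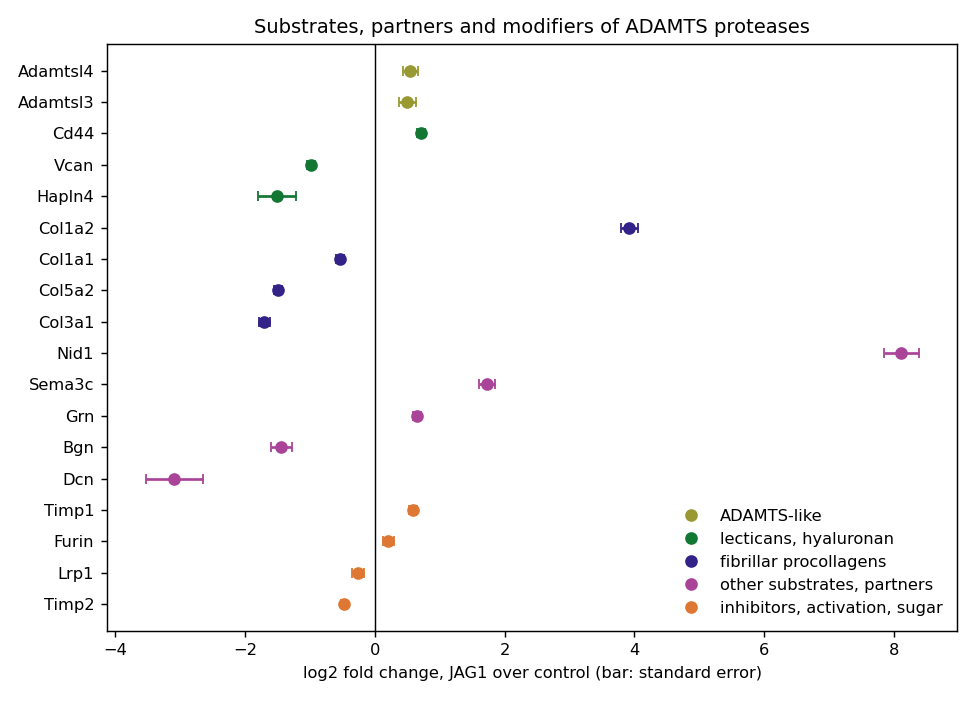
Points give the log2 change of JAG1 over control on the x axis with its standard error, for the named genes of the lists, coloured by list. Fbln1 and B3glct, with 1 read in all libraries of a group, are left out; of those plotted, Nid1 lies at 8.11 with 6 reads in control, Col1a2 at 3.92, and the lowest is Dcn at −3.09.

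ADAMTS proteases are made by many cell types, and marker genes of other cells that the culture could hold were read from the same fit. Of 8 fibroblast markers 6 were tested, with 1 higher (Col1a2) and 4 lower, and their summed level went from 426 to 474 CPM in control to 254 to 293 CPM in JAG1 libraries, while Lum and Tcf21 had 0 reads. Of 7 mural cell markers 2 were tested and both were lower, with a sum of 82.2 to 86.2 against 22.8 to 29.7 CPM, nearly all Pdgfrb, and with Rgs5, Kcnj8 and Cspg4 at 0. The sums of the endothelial markers (1.04 to 1.93 against 4.44 to 4.92 CPM, 1 of 7 tested, Flt1, higher), of the microglia and macrophage markers (5.75 to 6.12 against 3.58 to 4.61 CPM, 3 of 8 tested, 1 higher and 1 lower) and of the oligodendrocyte markers (0.523 to 1.19 against 0.243 to 0.698 CPM, 1 of 6 tested, with no call) were low. Tie1 and Tek, Mog, Mag and Sox10 had 0 reads. Of 5 neuron markers Tubb3 was lower and Map2 higher, with a sum of 96.9 to 107 against 58.3 to 61.4 CPM, and Snap25 and Syt1 had 0 reads. Of the markers with a call, Fbln1, Dcn, Anpep and Tmem119 passed the filter on low counts only through control libraries, and Cx3cr1 only through JAG1 libraries. The calls of these genes are not counted as a result. Over all genes tested 27.4% were higher and 27.7% lower. The part of the marker genes in the values of the ADAMTS genes was not tested.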

How the data were processed

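Sequencing of 6 mouse astrocyte libraries (3 control, 3 JAG1) used the QuantSeq 3' mRNA kit. Each deposited table gives the authors' raw read counts by gene symbol, and the log2 of a read count that the authors normalized by a method not given in the sources used here. The submitters' processing notes name Bowtie2, bedtools, edgeR, GRCm38 and mm10, without roles. Counts were analysed in R 4.3.3 with edgeR 4.0.16: filterByExpr (minimum count 10), TMM factors, and the quasi-likelihood test over 11712 genes with Benjamini-Hochberg adjustment and a threshold of 0.05. Standard errors were derived from the F statistic. For a symbol on more than 1 row, the row with the most reads was used. The test was tested on simulated data: of 196 changed genes among 11466, 98.5% were recovered, and 4.93% of calls were on unchanged genes. The simulation changed few genes and gave every gene the same spread, while 55.1% of genes were called in the data. These rates therefore do not carry over to the data. Positions, neighbours and promoters are from RefSeq on GRCm38.p6, and overlaps of exons from GENCODE M21. The members and lists were chosen with earlier results of these data known. Named were all ADAMTS proteases, Jag1 and, from each list except the markers, at most 3 genes with the largest rise and 3 with the largest fall among those past it whose mean over the libraries reached 1 CPM; others are said to be named after their values were seen, and marker and neighbouring genes serve as context. Alternatives were DESeq2 1.42.0, library size alone, upper-quartile factors, no filter, a filter at 10 counts on average, the replicate number as a block, limma-voom, and limma on the authors' log2 values (limma 3.58.1), and leaving out each library. A result on 1 further gene is not reported here.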

Additional observations from a re-analysis of the deposited data

How the results depend on the processing

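The direction and call of each of the 7 tested members held under all 14 alternatives, with 3 higher in each and 4 lower in each except without the low-count filter, where Adamts12 made it 5 and Adamts6 and Adamts15 did not pass. Adamts9 and Adamts2 had to differ, as said above, so their calls under the alternatives are no sign of stability. With 1 library left out, log2 fold changes ran from 1.65 to 1.74 for Adamts1, from 1.06 to 1.44 for Adamts5, from −5.53 to −4.95 for Adamts2, from −2.43 to −2.10 for Adamts7, from −1.48 to −1.31 for Adamts4 and from −1.27 to −0.84 for Adamts10. Over all alternatives the fitted value of Adamts9, which rests on control libraries at 0, ran from 4.89 to 8.03 and is no measure of size. The genes called higher numbered 2724 to 3388 and those called lower 2792 to 3498. The calls of Furin and Lrp1 were lost as given above, that of Furin also with upper-quartile factors (adjusted p = 0.0715 in edgeR); no other gene named by the rule changed its call. The replicate numbers are shared by the groups, but the deviations of same-numbered libraries correlated by 0.148, 0.0614 and 0.119, so they were not taken as pairs, although each library correlated best with its own number. With the replicate block, 3380 genes were higher and 3331 lower, and of the members 3 and 4. Reads limit Adamts6, 12 and 15, whose levels are near the limit of detection.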
